A study of Mus musculus with 22 samples.

Results

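G-quadruplexes (G4) are 4-stranded DNA structures that form where guanine runs lie close together, and they are best known from open promoters. The G4 sites described here lie elsewhere: they were bound by the G4 antibody in every library and carried no ATAC-seq peak in any. They were selected on measured peak overlaps. A member is a G4 peak of scramble KD replicate 1 that shares at least 1 bp with a peak in each of the other 3 G4 lists and with no peak of the 4 ATAC lists. This rule took 38761 of the 140119 G4 peaks in that list (27.7%), which is 83.8% of the 46238 constant peaks, meaning those found in all 4 G4 lists. They are called constant closed sites here, and the 7477 constant peaks that met an ATAC peak are called constant open sites.

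The cells were mouse embryonic stem (ES) cells of a hybrid CAST/Ei x 129/Sv/Jae background, the line 16.7, grown in serum medium with LIF. An LNA gapmer is a short antisense oligonucleotide that makes RNase H cut its RNA target. Cells were transfected with either a scramble gapmer (scramble KD) or a gapmer against TERRA, the RNA transcribed from telomeric repeats (TERRA KD). The gapmer was at 4 µM in the transfection solution, and the time after transfection was 12 h. Each assay had 2 replicates per condition. All groups thus share the line, the delivery and the time, and the line is a single hybrid line. The paper gives its sex chromosomes as XX. The libraries were ChIP-seq for ATRX, H3K9me3 and G4 (antibody BG4) and ATAC-seq, with 6 inputs, 22 samples in all. The loss of TERRA itself cannot be read from peak lists.

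ATRX is a chromatin remodeler that loads histone H3.3 at repeats and telomeres, H3K9me3 is the mark of constitutive heterochromatin, and ATAC-seq cuts DNA that nucleosomes leave accessible. A simple G4 motif is 4 runs of at least 3 G with short loops between them. Repeats of TG can take other forms, such as left-handed Z-DNA, above all where CG steps occur, and GGA repeats can fold into G4 with tetrads of fewer layers.

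The G4 lists rested on 2961038 filtered tags in scramble KD replicate 1, 24588605 in scramble KD replicate 2, 5759282 in TERRA KD replicate 1 and 13127555 in TERRA KD replicate 2, and both G4 libraries of a condition shared an input. The first of these, the shallowest, is the list the members come from. ATRX libraries held 4104486 to 15506154 tags, H3K9me3 libraries 5435286 to 13898785 and ATAC libraries 5976014 to 7883648. A peak of ATRX had a median length of 432 to 559 bp, while H3K9me3 peaks had a median of 2404 and 3120 bp in replicate 1 and of 491 and 515 bp in replicate 2. ATAC peaks lay within 1 kb of the transcription start site (TSS) of 9 or 10 of 10 ES cell markers, Pou5f1 and Sox2 among them, in each list, and no H3K9me3 peak did. Of 10 fibroblast markers, 6 or 7 also had an ATAC peak at the TSS, with none at Col3a1, Postn and Lum in any list, and the study removed feeder cells and passaged the cells before the gapmers were delivered.

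Read from the best-ranked sites, the constant closed sites held several kinds of sequence, and the examples below are shown for the 4 kinds the results turn on. Each is 120 bases of GRCm38 on the G-rich strand, 5′ to 3′, taken from the constant closed sites that ranked best within their kind over the 4 G4 lists, except the Med25 site, which ranked best among the coding exons of its kind. Capitals mark the match to the motif of that kind.
The first pair holds a G4 motif, in an intron of Myo5a, a myosin motor of vesicle transport, and in an intergenic stretch upstream of Lmntd1.
chr9:75083130-75083249, minus strand: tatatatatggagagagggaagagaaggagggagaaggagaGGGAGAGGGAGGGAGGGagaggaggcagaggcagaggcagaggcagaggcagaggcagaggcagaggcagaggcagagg
chr6:145454618-145454737, plus strand: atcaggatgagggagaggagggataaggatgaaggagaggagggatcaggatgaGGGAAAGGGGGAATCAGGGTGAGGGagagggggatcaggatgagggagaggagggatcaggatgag
The next pair holds a TG/CG tract, in introns of Fendrr, a long noncoding RNA gene of the lateral mesoderm, and of Ak5, an adenylate kinase.
chr8:121069492-121069611, plus strand: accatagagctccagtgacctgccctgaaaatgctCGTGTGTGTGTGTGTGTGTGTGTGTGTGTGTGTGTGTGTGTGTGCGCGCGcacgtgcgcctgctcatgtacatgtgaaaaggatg
chr3:152563298-152563417, minus strand: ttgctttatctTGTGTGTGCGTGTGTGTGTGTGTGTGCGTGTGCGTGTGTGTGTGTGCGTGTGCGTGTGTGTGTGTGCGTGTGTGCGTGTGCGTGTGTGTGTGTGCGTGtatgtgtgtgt
The next pair is intergenic and holds a GGA/GCA tract, which runs on beyond the bases shown, to 159 and 135 bases within the window searched.
chr2:51553749-51553868, minus strand: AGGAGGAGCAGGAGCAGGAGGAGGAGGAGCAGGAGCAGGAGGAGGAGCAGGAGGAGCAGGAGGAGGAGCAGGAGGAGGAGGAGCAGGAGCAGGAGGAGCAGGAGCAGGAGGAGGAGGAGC
chr9:15135120-15135239, minus strand: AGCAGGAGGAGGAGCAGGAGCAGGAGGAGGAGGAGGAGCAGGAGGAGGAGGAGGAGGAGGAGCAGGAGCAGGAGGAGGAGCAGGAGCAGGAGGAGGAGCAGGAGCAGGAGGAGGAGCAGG
The last pair matched none of the motifs that define the other kinds, so it has no capitals. It is an intergenic purine-rich stretch and a coding exon of Med25, a subunit of the Mediator complex.
chr4:101313097-101313216, plus strand: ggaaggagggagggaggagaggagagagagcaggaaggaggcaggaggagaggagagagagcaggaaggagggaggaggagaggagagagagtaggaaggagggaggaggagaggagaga
chr7:44879454-44879573, plus strand: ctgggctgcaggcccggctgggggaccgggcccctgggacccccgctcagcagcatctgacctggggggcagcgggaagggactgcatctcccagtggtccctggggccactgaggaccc

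Some 29.3% of the constant closed sites held a classical G4 motif at the summit, and 32.8% held a tract of TG or TG/CG steps. This tract lay in 11.2% of constant open sites, in 22.1% of closed G4 peaks missing from another list and in 22.9% of all G4 peaks. Motifs were searched on both strands of the 300 bases centred on the summit, for the 38710 members on assembled chromosomes. The G4 motif, with loops of 1 to 7 bases, lay in 29.3% of them (95% Wilson interval 28.9 to 29.8), in 24.0% of constant open sites, in 28.3% of the 76221 closed G4 peaks missing from another G4 list, and in 5.03% of all 300-base windows of the genome. A tract of TG in 8 copies lay in 26.9% of members against 8.81% of constant open sites, 19.7% of the other closed peaks and 3.38% of the genome. A tract of TG and CG steps, 8 in all with at least 1 CG, lay in 27.1% of members, 9.19% of constant open sites, 13.4% of the other closed peaks and 0.772% of the genome. Windows with both forms of the tract count in both shares. These intervals cover counting error over sites only, and sites are not replicates, so no test is attached to the shares.

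The CG-bearing form of the tract was the more often bound. Of the 68142 genome windows with a CG-bearing tract, 17.4% shared at least 1 bp with a constant closed site. With any G4 peak of scramble KD replicate 1, 38.0% did. For windows with a TG tract and no CG-bearing tract the shares were 2.21% and 7.87%. For windows with a G4 motif they were 4.39% and 15.9%, and for all windows 1.37% and 4.91%. The most frequent 8-base words of the members came from such tracts. CACACACA or its reverse complement lay in 37.7% of them, and CGCACACA lay in 24.0% of members, 8.24% of constant open sites and 11.6% of the other closed peaks. The longest tract of a member had a median of 38 bases, with quartiles of 26 and 50.

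The G4 motif and the tract seldom met. Both lay in 1.82% of members, and 60.3% had at least either. At least either lay in 34.4% of constant open sites, 48.9% of the other closed peaks, 50.2% of all G4 peaks and 8.44% of genome windows. A GGA/GCA tract, 8 triplets with at least 1 GGA, lay in 847 members (2.19%) and 44 constant open sites (0.589%). It lay in 1.44% of the other closed peaks and 0.137% of the genome. This motif was added after the best-ranked members had been seen. A GA tract of 8 copies overlaps this purine-rich kind and lay in 5.99% of members. The telomeric repeat, TTAGGG in 2 copies, lay in 5 members (0.0129%), against 0.0150% of the genome, and 2 members lay on any of the 723 tracts of at least 4 TTAGGG copies in the genome.

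Each member was put in the first kind it matched, with the G4 motif before the tracts and the TG/CG tract before the purine-rich tracts. This left 11349 members with a G4 motif, 11992 with a TG/CG tract (31.0%), 660 with a GGA/GCA tract (1.70%), 395 with a GA tract (1.02%) and 14314 with none (37.0%). Having no motif did not mean having few guanines. Of the last kind, 21.9% held a G4 motif once loops of up to 12 bases were allowed. Its GC content had a median of 58.3%. At least 4 runs of GGG on a strand, at any spacing, lay in 84.6% of it, against 52.9% of genome windows. The TG/CG kind held such runs in 38.0% of its members and had a median GC content of 46.3%.

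**Figure D1:**
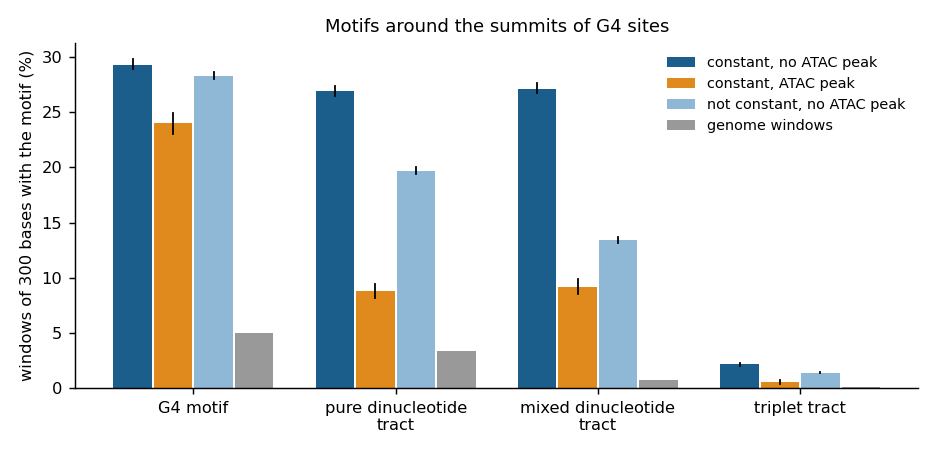
Share of 300-base windows around the summit that hold each motif (y axis, percent), for constant closed sites, constant open sites, closed G4 peaks missing from another list and all genome windows. Bars start at 0 and error bars are 95% Wilson intervals over sites. The pure dinucleotide tract (TG) stands at 26.9% and the mixed tract (TG with CG) at 27.1% in constant closed sites. They stand at 8.81% and 9.19% in constant open sites and at 19.7% and 13.4% in closed peaks missing from another list. The triplet tract (GGA/GCA) stays at 2.19% or less. Windows that hold both dinucleotide tracts count in both bars, and 32.8% of constant closed sites hold either.

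In base composition the constant closed sites lay between open sites and the rest. Their median GC content was 53.7%, against 61.3% in constant open sites, 45.7% in the other closed peaks and 41.3% in the genome. They held a mean of 5.91 CpG in 300 bases, against 12.1 in constant open sites and 2.47 in the genome. Repeat-masked bases made up a mean of 43.1% of the window, close to the 42.9% of constant open sites and below the 67.6% of the other closed peaks. By kind, masking ran from 34.7% in members without a motif to 82.4% in members with a GGA/GCA tract.

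The 4 G4 libraries did not rank these kinds in the same order. A rank here is the position of a peak in its own list by the deposited score, as a percent from the top, so a low value is a strong peak. Over all members the median rank was 28.9% in scramble KD replicate 1, 20.2% in scramble KD replicate 2, 22.6% in TERRA KD replicate 1 and 27.2% in TERRA KD replicate 2. The TG/CG kind stood at 15.0% in scramble KD replicate 1 but at 38.5% in scramble KD replicate 2. The kind without a motif did the reverse, with 39.0% and 9.88%. For both kinds the gap between the scramble KD replicates was larger than the gap between the TERRA KD replicates. The GGA/GCA kind held its place best, between 17.1% and 21.7% in all 4 lists. Of this kind, 21.1% was in the top 10% of all 4 lists, against 3.26% of all members. Its motif was defined after the members ranked best over these lists were seen, which favours high ranks. These ranks are therefore a description only.

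**Figure D2:**
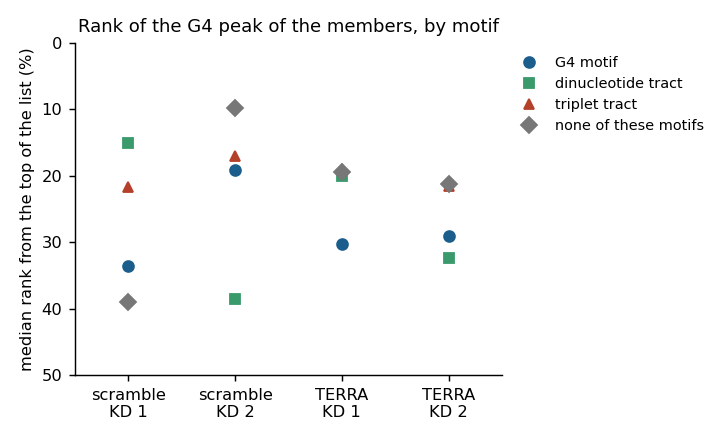
Median rank of the G4 peak on the members in each G4 list (y axis, percent from the top of the list, strong peaks at the top), by sequence kind and sample. The dinucleotide tract (TG/CG) moved from 15.0% to 38.5% between the scramble KD replicates and the sites without a motif from 39.0% to 9.88%. The triplet tract (GGA/GCA), defined after the members ranked best over these lists were seen, stayed between 17.1% and 21.7%.

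As chosen by the rule, the members had a median length of 599 bp, with quartiles of 476 and 748 bp, and a median of 7 tags in scramble KD replicate 1, ranging from 4 to 470. Most therefore rest on few reads. Their median -log10 p was 5.58, against 3.34 for closed peaks missing from another list. At the edge of the rule, 274 members were covered by at most 50 bp in another list, with a median -log10 p of 4.29, and 22924 closed peaks were found in only 2 of the other 3 lists, with 4.49. Of these, 13326 lacked only a peak in TERRA KD replicate 2. A further 254 members had an ATAC peak at most 50 bp away, with a median of 4.90, and 284 constant open sites met their ATAC peak over at most 50 bp, also with 4.90. The number of members was 7112 with G4 peaks of a -log10 p of at least 5, 160070 when chosen on replicate 2 alone and 67586 on replicate 1 alone.

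A constant closed site was typically some kilobases from accessible DNA. The nearest ATAC peak of any list lay at a median of 5004 bp, with quartiles of 1919 and 12519 bp, and within 1 kb for 5189 members (13.4%). Closed means only that no ATAC peak was called: 91.0% of the members met no H3K9me3 peak in any sample. Of the 7477 constant open sites, 2624 met an ATAC peak in all 4 lists and 2410 in a single list.

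Members spread over all autosomes and X, at 14.6 per Mb of sequenced bases over all chromosomes, Y included. There was 1 member on Y, which the XX line does not carry. Density was highest on chromosome 8 (23.6 per Mb) and chromosome 11 (20.5) and lowest among autosomes on chromosome 13 (10.3). Chromosome X held 5.92 per Mb and 15.1% of its G4 peaks were members, against 23.6% to 31.9% on the autosomes. ATAC peaks, averaged over the 4 lists, were also sparse on X, at 22.7 per Mb, against 27.9 to 50.1 on the autosomes. Neighbouring members lay a median of 12814 bp apart, and 10.8% had another within 1 kb.

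Most constant closed sites were away from genes' starts, in introns and between genes, with a surplus in coding exons. A TSS lay within 1 kb of the summit for 790 members (2.04%, 95% Wilson interval 1.90 to 2.19), against 12.3% of constant open sites, 1.30% of the other closed peaks and 1.83% of genome windows. Chosen on replicate 2 alone, without replicate 1, the closed sites gave 1.32%. The median distance to a TSS was 30790 bp, against 22640 bp for constant open sites and 59540 bp for genome windows. Introns held 43.1% of members and intergenic DNA 46.1%, where genome windows have 36.3% and 60.0%. Promoters, taken to start 1000 bp before a transcript and to end 100 bp inside it, held 1.24%, near the 1.19% of the genome and below the 6.79% of constant open sites.

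Coding exons held 2880 members (7.44%), where they make up 1.29% of genome windows and hold 1.26% of the other closed peaks and 13.2% of constant open sites. The kinds differed in this. Of members without a motif, 15.5% were in a coding exon, such as the Med25 exon printed above, of members with a G4 motif 5.52%, and of members with a TG/CG tract 0.175%. The exon sites had few H3K9me3 peaks, with 2.08%, 0.625%, 1.46% and 1.04% in scramble KD replicates 1 and 2 and TERRA KD replicates 1 and 2, while intergenic members had 8.82%, 5.67%, 8.68% and 7.10%. The exon and intergenic values of the members do not overlap. Over all G4 peaks, of any annotation, the shares were 5.50%, 5.05%, 6.92% and 5.47%. This split by annotation was not made for the other G4 peaks, so it cannot be called particular to the members.

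**Figure D3:**
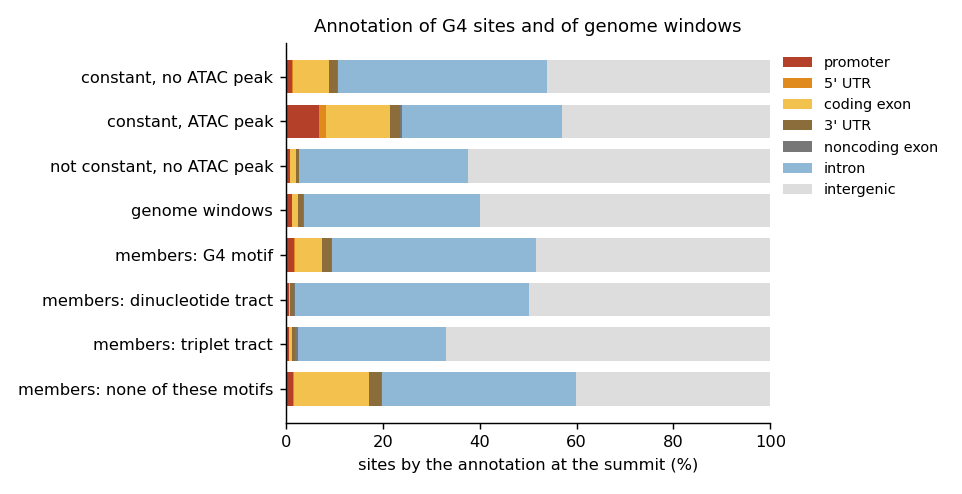
Annotation at the summit (x axis, percent of sites) of constant closed sites, constant open sites, closed G4 peaks missing from another list, genome windows and 4 sequence kinds of the members. Coding exons take 7.44% of constant closed sites and 15.5% of the members without a motif, against 0.175% of the dinucleotide (TG/CG) kind and 1.29% of genome windows.

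ATRX peaks were rare on constant closed sites in scramble KD and more frequent in both TERRA KD libraries. An ATRX peak lay on 161 members in scramble KD replicate 1 (0.415%), on 212 in scramble KD replicate 2 (0.547%), on 1359 in TERRA KD replicate 1 (3.51%) and on 1054 in TERRA KD replicate 2 (2.72%). Over all 140119 G4 peaks the shares were 0.500%, 0.922%, 3.60% and 2.63%, so the members stood near this background in TERRA KD and a little below it in scramble KD. The mean was 0.481% ± 0.0930 (SD, n = 2) in scramble KD and 3.11% ± 0.556 (SD, n = 2) in TERRA KD. The groups did not overlap, the difference was 2.63 percentage points, and permuting the labels of the 4 samples (exact permutation test, two-sided) gave p = 0.333, the smallest it can give, so no threshold of 0.05 can be reached. The labels do not say that replicates were separate cultures, and p-values then measure only the spread between these samples.

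The ATRX lists themselves grew, 5.65 times in replicate 1 and 1.59 times in replicate 2, while the share of members with a peak grew 8.44 and 4.97 times. Over all G4 peaks this share grew 7.21 and 2.86 times. In constant open sites it grew 9.20 and 8.81 times, more than in the members in both replicates. With the same number of top-ranked ATRX peaks in both conditions the shares were 0.415%, 0.547%, 0.854% and 1.94%, a difference of 0.916 points, and with ATRX peaks of a -log10 p of at least 5 it was 0.241. It was 1.71 points at the summit base alone and 4.97 with G4 peaks of a -log10 p of at least 5. Constant open sites had 1.08%, 0.963%, 3.22% and 6.93% with equal numbers of top-ranked peaks. No share over all G4 peaks was counted in that form.

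Few members had the same ATRX call in both replicates. An ATRX peak in both TERRA KD libraries and neither scramble KD library was found on 145 members (0.374%), against a background of 0.362% of all G4 peaks. The reverse pattern was found on 1 member, where the background is 0.00714%. No ATRX peak in any sample was found on 36248 members (93.5%) and on 93.3% of all G4 peaks. Genome windows had ATRX at their centre in 0.135%, 0.300%, 0.859% and 0.505%, and the summits of members in 0.199%, 0.266%, 2.18% and 1.72%. The summits of members were thus above the genome in TERRA KD, and in scramble KD above it in replicate 1 and below it in replicate 2.

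Constant open sites carried more ATRX than the closed ones. Their shares were 1.08%, 0.963%, 9.96% and 8.48%, in the order scramble KD replicates 1 and 2 and TERRA KD replicates 1 and 2. Closed minus open was below 0 in 4 of 4 samples, from -6.46 to -0.416 points with a mean of -3.33, and an exact sign-flip test, two-sided, gave p = 0.125, the smallest possible with 4 samples. This mean was -2.11 with equal numbers of top-ranked peaks, -0.778 with peaks of a -log10 p of at least 5 and -5.64 with G4 peaks of that strength.

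H3K9me3 lay on a small part of the constant closed sites and did not separate the conditions. The counts were 2146 members in scramble KD replicate 1 (5.54%), 1366 in scramble KD replicate 2 (3.52%), 2049 in TERRA KD replicate 1 (5.29%) and 1762 in TERRA KD replicate 2 (4.55%), against a background of 5.50%, 5.05%, 6.92% and 5.47% of all G4 peaks. The scramble KD values enclosed the TERRA KD values. The mean was 4.53% ± 1.42 (SD, n = 2) in scramble KD and 4.92% ± 0.524 (SD, n = 2) in TERRA KD, a difference of 0.386 points with p = 1.00 by the same exact permutation test. It was -0.0281 with G4 peaks of a -log10 p of at least 5, 1.43 without replicate 1 and 0.00592 without replicate 2.

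H3K9me3 in all 4 samples was found on 589 members (1.52%), against a background of 1.34%. Constant open sites carried H3K9me3 more often, at 12.6%, 9.71%, 13.8% and 10.7%, and closed minus open was negative in 4 of 4 samples, from -8.49 to -6.14 points with a mean of -6.98 (exact sign-flip test, two-sided, p = 0.125, the smallest possible). Without replicate 1 this mean was -3.24 and without replicate 2 it was -3.80, from sites chosen on the remaining replicate. It was -3.31 when constant sites with an ATAC peak within 1 kb were moved from the closed to the open group, and -2.70 with H3K9me3 peaks of a -log10 p of at least 5. Within the members the mark rose away from accessible DNA, from 3.95%, 2.25%, 3.62% and 3.35% at up to 1 kb from an ATAC peak to 7.33%, 5.44%, 7.47% and 6.01% beyond 20 kb.

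ATRX and H3K9me3 met on the same members more often than on members without ATRX. In scramble KD replicate 1, 55 of the 161 members with ATRX (34.2%) carried H3K9me3, against 5.42% of the others. The shares were 22.6% against 3.42% in scramble KD replicate 2, 31.9% against 4.32% in TERRA KD replicate 1 and 21.3% against 4.08% in TERRA KD replicate 2. In each replicate number the value was close in both conditions. All G4 peaks gave 33.4%, 30.9%, 32.0% and 22.7% for peaks with ATRX. Constant open sites with ATRX carried H3K9me3 in 59.3%, 54.2%, 45.4% and 33.1%, above the members in each sample.

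**Figure D4:**
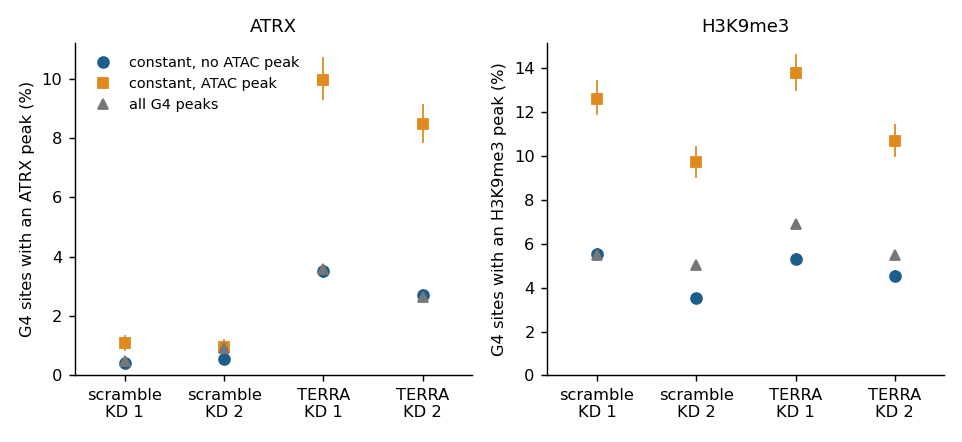
Share of G4 sites with an ATRX peak (left) and an H3K9me3 peak (right) in each sample (y axes, percent), for constant closed sites, constant open sites and all G4 peaks, with 95% Wilson intervals over sites. ATRX lies on 0.415% and 0.547% of constant closed sites with the scramble gapmer and on 3.51% and 2.72% with the TERRA gapmer, and constant open sites lie above them in every sample for both marks.

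The kinds of sequence also differed in both marks. Members with a GGA/GCA tract and no other motif had ATRX on 6 of 660 in scramble KD replicate 1, 15 in scramble KD replicate 2, 90 in TERRA KD replicate 1 (13.6%) and 43 in TERRA KD replicate 2 (6.52%). The kind without a motif followed in TERRA KD with 4.97% and 3.82%, then the G4 motif with 2.55% and 2.22% and the TG/CG tract with 2.12% and 1.69%. This order of the 4 kinds held in both TERRA KD libraries, and the lower GGA/GCA value still lay above both values of each of the other kinds. As this kind was defined after the best-ranked members were seen, its values are a description. Over all G4 peaks, of any kind, ATRX lay on 3.60% and 2.63% in TERRA KD. The split by these kinds was not made for the other G4 peaks, so the order cannot be called particular to the members.

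Counted over all 847 members with a GGA/GCA tract, ATRX lay on 6, 16, 91 and 46 (0.708%, 1.89%, 10.7% and 5.43%). The order here is scramble KD replicates 1 and 2, then TERRA KD replicates 1 and 2. Over all G4 peaks the shares were 0.500%, 0.922%, 3.60% and 2.63%. Over the 2031 G4 peaks with this tract, members included, they were 0.591%, 1.13%, 5.91% and 3.05%. With equal numbers of top-ranked peaks the counts were 6, 16, 53 and 39, and with ATRX peaks of a -log10 p of at least 5 they were 0, 0, 32 and 7. Both conditions stayed apart in each form of the count, but no share over all G4 peaks was counted for the last forms. TERRA KD against scramble KD was a ratio of 15.2 in replicate 1 and of 2.88 in replicate 2, so its size was not settled between replicates. This ratio was 7.21 and 2.86 over all G4 peaks, and 8.44 and 4.97 over all members. In replicate 2 the members with this tract thus stood near all G4 peaks in fold terms, and below all members. Of 1095 closed G4 peaks with the same tract that were missing from another list, 3, 7, 12 and 4 had ATRX.

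H3K9me3 ordered the kinds in another way. It lay on 10.2%, 6.21%, 9.46% and 7.67% of the members without a motif, on 3.93%, 2.27%, 3.96% and 3.01% of those with a G4 motif and on 1.63%, 1.47%, 1.66% and 2.18% of those with a TG/CG tract. This order of the 3 kinds was the same in all 4 samples, while the GGA/GCA kind, with 2.73%, 3.48%, 2.88% and 5.61%, changed places with the G4 motif. Of these 4 kinds, members with a TG/CG tract had the lowest share in both marks in both TERRA KD libraries. Over all G4 peaks, of any kind, H3K9me3 lay on 5.50%, 5.05%, 6.92% and 5.47%. As the split by these kinds was not made for the other G4 peaks, it cannot be called particular to the members.

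**Figure D5:**
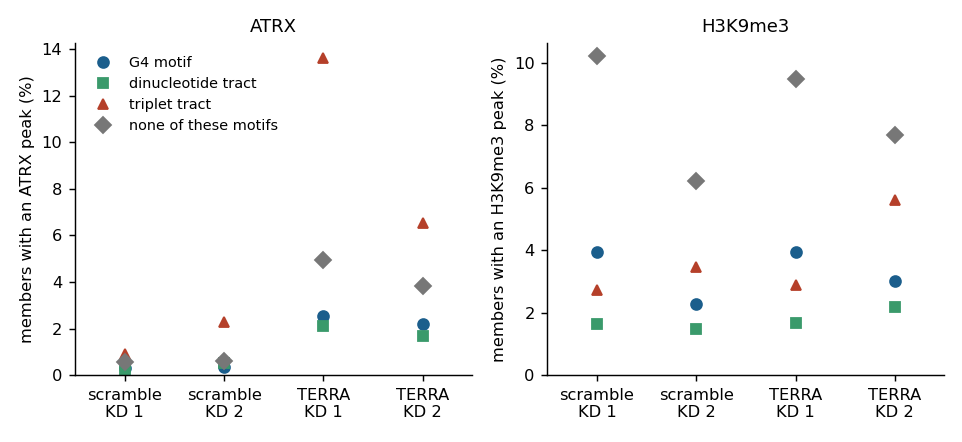
Share of members with an ATRX peak (left) and an H3K9me3 peak (right) in each sample (y axes, percent), by sequence kind. In ATRX the triplet tract (GGA/GCA) reaches 13.6% and 6.52% in TERRA KD, and in H3K9me3 the members without a motif lie highest in every sample, at 6.21% to 10.2%.

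The triplet kind was frequent among the strongest constant closed sites, from which its motif was defined. Ordered by the worst rank over the 4 G4 lists, 9 of the best 10 members held a GGA/GCA tract, 51 of the best 100 and 129 of the best 1000. The best 10 had a median length of 2253 bp, a GC content of 58.7% to 66.7% and no CpG in the window. ATRX lay on 1 of them in scramble KD replicate 1, 1 in scramble KD replicate 2, 8 in TERRA KD replicate 1 and 9 in TERRA KD replicate 2, where all G4 peaks have 0.500%, 0.922%, 3.60% and 2.63%. H3K9me3 lay on 0, 1, 5 and 7 of these 10 in the same order, where all G4 peaks have 5.50%, 5.05%, 6.92% and 5.47%. Such long repeats have near copies elsewhere, and how the aligner placed reads there, as well as the input coverage, was not tested.

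The site printed above from chromosome 2 (chr2:51552663-51555387, nearest TSS that of the bitter taste receptor gene Tas2r134) held 126 and 464 G4 tags with the scramble gapmer and 213 and 218 with the TERRA gapmer, and ranked in the top 0.0150% of each list. It met ATRX and H3K9me3 peaks in both TERRA KD libraries and in neither scramble KD library. The site on chromosome 9 (chr9:15133926-15136725, nearest TSS Hephl1) held 182, 538, 282 and 262 tags and met ATRX in both TERRA KD libraries alone and H3K9me3 in TERRA KD replicate 1 alone. In an intron of Epha3, an ephrin receptor gene, chr16:63832768-63834707 held 142, 397, 196 and 232 tags, with ATRX in both TERRA KD libraries alone. Tags are not scaled for depth, so they say only that each list rests on many reads there. By contrast the best-ranked site outside the triplet kind, the purine-rich chr4:101312437-101314782, held 124, 424, 193 and 214 tags and met neither ATRX nor H3K9me3 in any sample.

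Among the members ATRX was most frequent in the bin of the strongest G4 peaks. The members were split by their worst rank over the 4 G4 lists into 4 bins of equal size. In the best bin ATRX lay on 0.568%, 0.815%, 5.49% and 4.61%, and in the lowest on 0.382%, 0.537%, 2.82% and 2.02%. Each sample was highest in the best bin, and the other bins differed little among themselves. H3K9me3 was also highest there, at 6.78%, 5.12%, 6.30% and 5.97%. Overlaps were counted over the whole peak, and strong members were longer. The best 1000 had a median length of 1006 bp, against 598 bp over all members on assembled chromosomes. Whether length accounts for the difference between bins was not tested. Over all G4 peaks, of any strength, ATRX lay on 0.500%, 0.922%, 3.60% and 2.63%, and these were not split by strength.

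A member lay within 1 kb of the TSS of 784 of 26182 genes (2.99%), 549 of them protein-coding. These were mostly genes with closed starts: 24.9% of the 784 had an ATAC peak within 1 kb of the TSS in any list, against 67.2% of all genes, although the rule bars an ATAC peak on the member and so lowers this share. Constant open sites lay at the TSS of 974 genes, and 28 genes had both.

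By the best worst rank over the 4 G4 lists, the leading protein-coding gene was Uros, which encodes uroporphyrinogen III synthase of heme synthesis. Its member, with the summit at -302 bp from the TSS (chr7:133710360-133711250), ranked 0.118%, 0.477%, 0.430% and 0.396%, held a GGA/GCA tract and met ATRX in both TERRA KD libraries and in neither scramble KD library. Next came Gnb3, a G protein subunit of photoreceptors, Wfdc1, a secreted protein with a WAP domain, Vil1, the actin-bundling villin of microvilli, and the predicted gene Gm11562. The list went on with the testis gene Tsks, with Prr22, with Tmprss6, a liver protease that restrains hepcidin, with Gm9639, the hair gene Krtap1-3, the cardiac actin gene Actc1 and Plin4, a lipid droplet coat protein. At Actc1 the summit was at -13 bp from the TSS and the ranks were 5.93%, 5.24%, 2.35% and 3.51%. Of these 12 genes only Uros met an ATRX or H3K9me3 peak in any library, and its H3K9me3 peak was in TERRA KD replicate 1 alone.

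Of the 549 protein-coding genes with a TSS member, 2 had ATRX on it in both TERRA KD libraries and no scramble KD library, where 0.362% of all G4 peaks show this pattern. Beside Uros this was Spin2d, of a multicopy spindlin family on chromosome X, whose better ATRX peak ranked at 86.0% of its list and whose reads may be shared with copies. In at least 1 TERRA KD library and no scramble KD library there were 38 of the 549 genes, where 5.39% of all G4 peaks show this, 15 with ATRX in replicate 1 and 25 in replicate 2. By ATRX rank these were led by Bcan, which encodes the brain matrix proteoglycan brevican, Tgfbr3l, Uros, Podnl1, Clec4a1, the pericyte surface gene Cd248, the sodium channel gene Scnn1a, the glycosyltransferase gene Galnt7, Prss54 and Cacng4. Apart from Uros each of these 10 had its ATRX peak in TERRA KD replicate 2 alone, so the calls were not shared between replicates. The sites at Bcan, Scnn1a, Galnt7 and Cacng4 were 24 to 185 bp from an ATAC peak.

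H3K9me3 in all 4 samples was found at the TSS member of 3 of the 549 protein-coding genes, where 1.34% of all G4 peaks carry it. They were Asmt, the last enzyme of melatonin synthesis, at the end of chromosome X, the odorant receptor gene Olfr212, and Guca1b, a guanylate cyclase activator of photoreceptors. ATRX met the Asmt site in scramble KD replicate 1 and both TERRA KD libraries, the Olfr212 site in TERRA KD replicate 1 and the Guca1b site in scramble KD replicate 2.

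Of the gene lists examined, keratins and keratin-associated proteins, which build hair and epidermis, had the highest share. A member lay at the TSS of 33 of 110 of these genes (30.0%), against 2.99% of all genes, and a constant open site at 9 (8.18%). They are short, clustered genes with near-identical copies, so sites can share reads and count for several genes. At Krtap1-3 the ranks were 5.35%, 4.73%, 3.70% and 2.40%, at Krtap1-4 1.36%, 16.3%, 1.74% and 9.09%, and neither site, nor those of Krtap9-3 and Krt79, met ATRX or H3K9me3 in any sample.

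For developmental regulators the counts were small. No member and no constant open site lay at the TSS of any of 39 Hox genes. A member lay there for 3 of 151 lineage transcription factor genes (1.99%), against 2.99% of all genes: Pax4 of endocrine pancreas, Neurod2 of neurons and Tbx6 of paraxial mesoderm. Of 138 genes for potassium, sodium and calcium channels 6 had one (4.35%), led by the muscle genes Cacna1s and Scn4a and then Cacna1i and Cacng4, and of 45 GABA and glutamate receptor genes 2, Gria1 and Grik3. Of the named genes in these lists only Cacng4, a channel subunit gene, had ATRX on its site, in TERRA KD replicate 2, and none had H3K9me3.

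Against the same 2.99% of all genes, there was no member at the TSS of 81 cytosolic ribosomal protein genes, 58 replication-dependent histone genes or 17 core pluripotency genes. None of these had a constant open site there either. Of 16 genes known for promoter G4 none had a member and 2 had a constant open site. The rule bars an ATAC peak on the member, which lowers such counts at genes with open starts. Odorant and vomeronasal receptors, silent outside the nose, had 14 in 1461 genes (0.958%), zinc finger genes of the Zfp series 2 in 368, Zfp641 and Zfp648, and clustered protocadherins 1 in 58, Pcdha6. Of 16 germline genes Tex101 had one, and of 37 imprinted genes Igf2, the paternally expressed growth factor gene. The Igf2 site, at -969 bp from the TSS, ranked 3.57%, 2.88%, 1.02% and 12.5% and met H3K9me3 in replicate 1 of both conditions and ATRX in none.

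Inside gene bodies lay 20644 members (53.3%), in 8643 genes, at 1.98 per 100 kb. The most were in Camta1, a calmodulin-binding transcription activator of neurons, with 44 (5.48 per 100 kb), Cdh13, an atypical cadherin without a transmembrane domain, with 42 (4.03), Wwox, a tumor suppressor gene over a fragile site, with 40 (4.38), the kinase gene Ulk4 with 37 (11.8) and Cdh23, a cadherin of the hair cell tip link, with 33 (8.38). All 5 are long genes, and each had more members per length than the mean of gene bodies.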

How the data were processed

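Reads had been trimmed with Trim Galore 0.5.0, aligned to GRCm38/mm10 with Bowtie2 2.3.4.1 and handled with SAMtools 1.9 and deepTools 3.1.1, as the submitters' processing notes list. The authors called peaks per library at a p of 0.01, with MACS 1.4.3 against the input of the same replicate for ATRX and H3K9me3, 1.4.2 with 1 input per condition for G4, and 2.2.7.1 without input for ATAC. The deposited ChIP lists give a count of tags per peak, a score (a scaled log10 of p), a fold enrichment over local background and a false discovery rate in percent. The deposited ATAC lists give a pileup signal, a fold enrichment and -log10 p. None is scaled for depth, so peaks were ranked within lists. A site without a peak is one where enrichment was not detectable at that depth.

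Overlaps shared at least 1 bp and were computed in Python 3.11.15 with numpy 2.4.6, pandas 2.3.3 and scipy 1.17.1, and checked on simulated data. Conditions were compared over samples with exact permutation tests, and closed with open sites within samples with exact sign-flip tests. Sequences, motifs and positions came from RefSeq GRCm38.p6, with TSS as the most upstream starts of curated transcripts. Intervals cover counting error only. Replicate numbers from the public labels correlated over 2737 stretches with r = 0.0074 for ATRX and 0.36 for H3K9me3. The members and gene lists were chosen with earlier results of these data known. Named genes were the 12 best-ranked with a member at the TSS, the 5 with most members in the body, those with ATRX in TERRA KD alone (at most 10) or H3K9me3 in all samples, and the best-ranked of each list, and Spin2d was named after its values were seen. Alternatives changed peak strength, overlap, ATAC distance, chromosomes, replicates, list size, position, windows and loops, and the limit to peaks between the length quartiles was added after seeing the data.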

Additional observations from a re-analysis of the deposited data

How the results depend on the processing

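Of the 12 alternatives for ATRX in TERRA KD minus scramble KD and the 11 each for ATRX and H3K9me3 in closed minus open sites, all kept the direction, and 11 of 12 did for H3K9me3 in TERRA KD minus scramble KD. The exception was -0.0281 points with G4 peaks of a -log10 p of at least 5. None could reach 0.05 at this number of samples. On the members as chosen, H3K9me3 in TERRA KD minus scramble KD was -0.250 points in replicate 1 and 1.02 in replicate 2. Its direction was thus not shared by the replicates. With the replicate block the differences were 2.63 for ATRX (exact sign-flip test on 2 pairs, p = 0.500, the smallest possible) and 0.386 for H3K9me3 (p = 1.00), and the block changed no call; the numbers share no stated batch. Leaving out a replicate gave 1.77 to 2.88 for ATRX and 0.00592 to 1.43 for H3K9me3 between conditions, and -3.49 to -3.48 and -3.80 to -3.24 for closed minus open. The number of members was 7112 with G4 peaks of a -log10 p of at least 5 and 67586 to 160070 without a replicate, where fewer lists had to match and, without replicate 1, the members came from the larger list of scramble KD replicate 2.

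The share of members within 1 kb of a TSS was 2.36% with those stronger G4 peaks, 1.69% without an ATAC peak within 1 kb, 2.24% with ATAC peaks of a -log10 p of at least 5, 1.32% to 2.71% without a replicate, 6.45% with a window of 3 kb and 1.47% for protein-coding genes. The share with a G4 motif was 24.1% with the stronger G4 peaks, 20.9% to 31.6% without a replicate, 38.4% with loops of up to 12 bases and 37.2% over the whole peak. Depth limits what a missing peak means, above all in scramble KD replicate 1 of G4, the list with the fewest tags. Peaks between the length quartiles of 476 and 748 bp gave 2.41 and 0.478 points between conditions and -2.38 and -6.24 for closed minus open.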

Other observations

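Within 1 Mb of the distal end of the chromosomes lay 207 members, or 12.3 per Mb, against 14.6 per Mb over all chromosomes. Of all G4 peaks in the list the members came from, 121 lay on a tract of at least 4 TTAGGG copies, of which 2 were members and 2 were constant open sites.

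Constant open sites with a GGA/GCA tract, 44 in all, met ATRX in 2, 0, 12 and 9 cases in scramble KD replicates 1 and 2 and TERRA KD replicates 1 and 2. H3K9me3 met 7, 4, 4 and 2 of them, so ATRX and H3K9me3 did not order the samples alike there. Seen from the ATRX lists, 158 peaks of scramble KD replicate 1 (2.16%), 212 of scramble KD replicate 2 (1.55%), 1371 of TERRA KD replicate 1 (3.31%) and 1053 of TERRA KD replicate 2 (4.85%) lay on a constant closed site. Among the top 10% of each ATRX list the shares were 2.46%, 2.27%, 4.90% and 8.20%, higher than over the whole list in 4 of 4 samples.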
